A study of Mus musculus with 12 samples.

Results

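A set of 9 genes of the Purkinje cell, the large inhibitory neuron that sends the only output of the cerebellar cortex, was followed across the 4 sorted populations of this mouse series. They are Car8, Pvalb, Pcp2, Pcp4, Calb1, Itpr1, Ppp1r17, Rora and Lhx1os. The genes were chosen by symbol, and each had 1 row among the 54547 genes of the deposited tables. All 9 passed the filter on low values. RNA was sequenced from GFP+ cells and from CD11b+ phagocytes, with 3 libraries in each group. The control groups carried Msi1-CreER and GFP and came from cerebellum. The RasV12 groups carried Msi1-CreER and RasV12, an oncogenic form of Ras, and came from brain tumors. All groups thus shared Msi1-CreER, an inducible Cre recombinase expressed where the progenitor gene Musashi-1 is active, and a mixed background of 129 and C57BL/6. Because the RasV12 libraries came from tumor and the control libraries from cerebellum, tissue and genotype cannot be told apart. The labels give no age and leave it unsaid whether replicates are different mice. P-values therefore refer to spread among libraries, some of which could be technical.

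Calcium signaling is central to the Purkinje cell. Glutamate from climbing and parallel fibers opens calcium channels and drives the production of inositol trisphosphate (IP3), which releases calcium from stores through the IP3 receptor encoded by Itpr1. Calcium buffers and calmodulin-binding proteins shape these signals, and the nuclear receptor encoded by Rora is needed for the cells to mature. Several of the genes are not unique to this cell: Pvalb and Rora are also expressed by interneurons of the molecular layer, and Calb1, Itpr1 and Pcp4 by neurons outside the cerebellum.

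The GFP+ libraries held 18519240 to 34432725 reads and the control CD11b+ libraries 7883870 to 34601205, as recovered from the deposited values. RasV12 CD11b+ 1 and 2 stood apart with 3642570 and 2951629 reads, so 1 read there was worth 4.46 and 5.54 normalized counts, against 0.358 to 1.5 in the other libraries. Genes of olfactory, vomeronasal and taste receptors, which are mostly silent in brain cells, served as a measure of the level that silent genes reach in each library. They gave 0.995 to 4.08 normalized counts per kb in GFP+ libraries and 5.52 and 5.68 in control CD11b+ 1 and 3. In control CD11b+ 2 they gave 45.0 and in the RasV12 CD11b+ libraries 70.9 to 107.7. That rate times a gene's length is called the receptor level of the gene here. Mitochondrial genes took 20.1 to 30.43% of control GFP+ counts, 1.53 to 2.62% of RasV12 GFP+ counts, 0.63 to 2.54% of control CD11b+ counts and 13.3 to 17.67% of RasV12 CD11b+ counts. Results that rest on control CD11b+ 2 or RasV12 CD11b+ 1 and 2 are given with and without them where they changed.

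The control GFP+ population was a mixture and not sorted Purkinje cells. Markers of oligodendrocytes summed to 968900 to 1609000 normalized counts there, markers of astrocytes and Bergmann glia to 282500 to 305400, and the 9 Purkinje cell genes to 62990 to 74290. Erythroid markers summed to 8894 to 774400 and choroid plexus markers to 24310 to 114500, and both exceeded the sum of the 9 genes in some of these libraries. The 10 myeloid markers in the table summed to 179.4 to 836.5 in control GFP+ and 1063 to 1938 in RasV12 GFP+ libraries, and 4 of the 10 (Itgam, Csf1r, Aif1 and Fcgr3) had no reads in control GFP+ cells. They summed to 146700 to 482200 in phagocytes of controls and 44520 to 63530 in those of tumors. RNA from bulk samples cannot tell fewer cells of a type from less RNA per cell, and this holds for each difference below.

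Positions are on GRCm38 with GENCODE M21 annotation. Calb1 (chr4:15881264-15908064, plus strand) and Car8 (chr4:8143362-8239041, minus strand) lie on 1 chromosome, as do Itpr1 (chr6:108213096-108551109, plus strand) and Ppp1r17 (chr6:56017497-56032689, plus strand). Pvalb is at chr15:78191114-78206400 (minus strand), Pcp2 at chr8:3623371-3625545 (minus strand), Pcp4 at chr16:96467606-96525793 (plus strand) and Rora at chr9:68653786-69388246 (plus strand). Lhx1os (chr11:84525660-84535831, plus strand) is annotated as a long intergenic noncoding RNA, and the other 8 genes encode proteins. Their exons add up to 698 bp for Lhx1os and 18319 bp for Itpr1, the shortest and the longest. The deposited values are per gene and cannot be assigned to a single exon.

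Levels per length, in FPKM, can be compared between genes. In control GFP+ cells Pvalb (830.2 FPKM) and Pcp4 (826 FPKM) had the highest means, and their libraries overlapped. The FPKM of Pcp4 implies a length of 0.641 kb, against 1026 bp of exons in GENCODE M21. Per kb of M21 exons Pcp4 had 8599 normalized counts, below Pcp2 with 10480 and Pvalb with 13840, so its place in the order depends on the length used. In FPKM Pcp2 followed with 628 FPKM, the noncoding Lhx1os with 248 FPKM and Car8 with 167 FPKM. No library of these genes overlapped those of the next gene in the order from Pcp4 to Calb1. Calb1 (38.6 FPKM), Ppp1r17 (30.7 FPKM), Rora (19.8 FPKM) and Itpr1 (18.8 FPKM) were lowest, and neighbors among these 4 overlapped. In RasV12 GFP+ cells the order was another: Pcp4 (5.13 FPKM), Rora (3.40 FPKM) and Itpr1 (3.07 FPKM) led, and Car8 (0.133 FPKM) and Ppp1r17, listed at 0, were last. Each gene in that order overlapped the next.

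**Figure D1:**
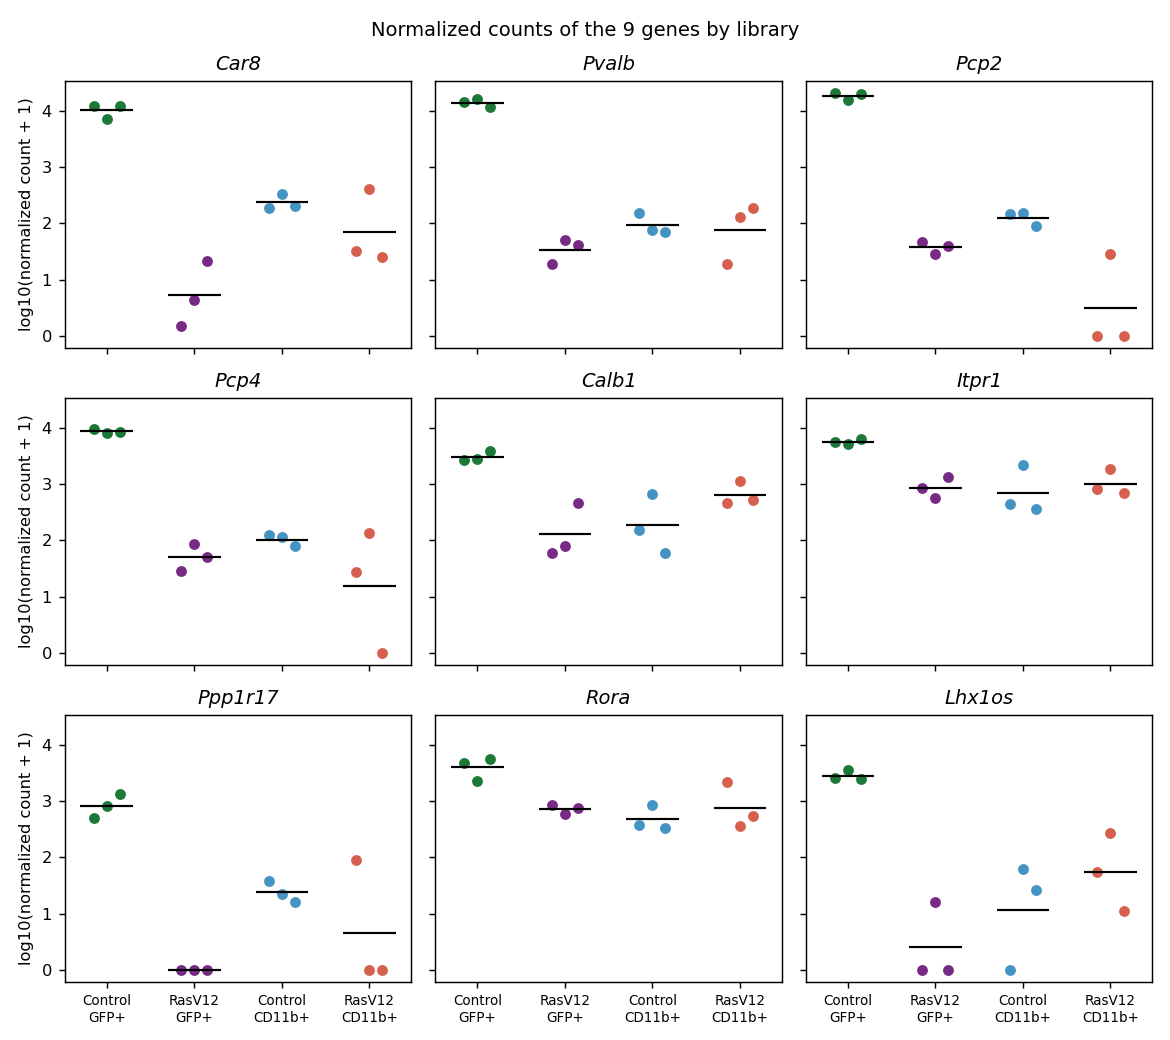
Level of each Purkinje cell gene in the 12 libraries. The y axis is log10(normalized count + 1), the x axis the 4 sorted groups, each point is 1 library and each bar the mean of the 3 log values. The 3 control GFP+ points lie above the 3 RasV12 GFP+ points and the 3 control CD11b+ points in all 9 panels.

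Rora encodes a receptor of the ROR family, which binds DNA at AGGTCA preceded by an AT-rich stretch, and the regions just before the starts of the genes were searched for these letters. RefSeq promoter windows of GRCm38.p6 were given for 5 of the 9 genes, namely Pvalb, Pcp2, Pcp4, Rora and Lhx1os. AGGTCA on either strand was found in the 250 bases before the start of Pcp2 and of Pcp4, and in 13.84% of 27025 promoters. The longer ROR response element, searched in a form that ends in AGGTCA or GGGTCA, was in 0 of the 5 and in 0.68% of all promoters. The matches are shown because both genes are among the most abundant of the 9, and capitals mark AGGTCA or its reverse complement TGACCT. For Pcp2 the 30 bases that end at the base before the RefSeq start are given (chr8:3625548-3625577, minus strand, with all 30 bases in an exon of Pet100 on the opposite strand), with the match at -12 to -7 on the same strand as the gene. For Pcp4 the 250 bases before the start are given (chr16:96467356-96467605, plus strand, within an intron of Igsf5), with the match at -164 to -159 on the opposite strand.
Pcp2: cttttaaaaggccttctcAGGTCAgagacc
Pcp4: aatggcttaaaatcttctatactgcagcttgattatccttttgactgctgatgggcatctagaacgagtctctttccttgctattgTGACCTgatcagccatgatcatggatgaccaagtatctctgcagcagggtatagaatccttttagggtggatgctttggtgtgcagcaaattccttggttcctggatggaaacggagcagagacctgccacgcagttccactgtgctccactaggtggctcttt

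Every one of the 9 genes was lower in RasV12 GFP+ cells than in control GFP+ cells. The 9 of 9 compare with 2.65% of the 29835 genes tested that were called lower and 4.14% called higher, by limma-trend with Benjamini-Hochberg adjustment over all of these genes. The median log2 fold change was -8.72 over the 9 genes and 0.56 over all genes. For each of the 9 the 3 RasV12 libraries lay below the 3 control libraries, which was so for 10.9% of all genes. The sum over the 9 genes was 62990 to 74290 normalized counts in control libraries and 1424 to 2725 in RasV12 libraries.

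Among the calcium buffers and calmodulin-binding proteins, Pvalb encodes parvalbumin, a cytosolic calcium buffer. It had 14565.1, 16754.2 and 11909.9 normalized counts in control GFP+ libraries and 17.6, 49.3 and 40.4 in RasV12 GFP+ libraries. The groups were far apart: the ratio of the means was 403-fold, and the log2 fold change was -8.72 ± 0.87 (SE; limma adjusted p = 0.000114). Pcp4, also called PEP-19, speeds the exchange of calcium on calmodulin. It had 9898.1, 8088.0 and 8481.5 normalized counts in controls and 28.0, 87.1 and 49.0 in RasV12 libraries, 161-fold lower by the means (-7.45 ± 1.34; adjusted p = 0.00468). Pcp4 shares 243 exon bases with Igsf5 on the same strand, so part of its reads could be assigned to either. Igsf5 itself had 102 ± 169 (SD, n = 3) normalized counts in controls. The part of reads from the shared bases in the Pcp4 values was not tested. Calb1 encodes calbindin-D28k, a calcium-buffering protein by which Purkinje cells are often stained. It had 2682.7, 2810.1 and 3850.6 normalized counts in controls and 59.2, 78.5 and 458.5 in RasV12 libraries, with RasV12 GFP+ 3 the highest of its group. The means differed 15.7-fold (-4.56 ± 0.92; adjusted p = 0.0092), and the call was lost when the receptor level was subtracted (adjusted p = 0.27).

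Itpr1 and Car8 act at the calcium store. Itpr1 had 5689.7, 5236.1 and 6344.1 normalized counts in controls and 871.1, 565.8 and 1349.8 in RasV12 GFP+ libraries, a smaller gap than for the buffers. The means differed 6.20-fold (-2.72 ± 0.64; adjusted p = 0.0206). The call for Itpr1 was lost by quantile normalization (adjusted p = 0.107) and by leaving out control GFP+ 1 (0.0534), 2 (0.0528) or 3 (0.0593), or RasV12 GFP+ 1 (0.0713) or 2 (0.0943), and the log2 fold change stayed between -3.03 and -2.25 in all alternatives. Car8 encodes a carbonic anhydrase-related protein without enzyme activity that binds the IP3 receptor and lowers its affinity for IP3. It had 12424.0, 7272.4 and 12416.5 normalized counts in controls and 0.5, 3.4 and 20.4 in RasV12 libraries. This was the largest fitted change of the 9 genes, 1322-fold by the means (-10.96 ± 1.15; adjusted p = 0.000161), and RasV12 GFP+ 1 and 2 lay under the receptor level of the gene.

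Pcp2 and Ppp1r17 modulate other signals. Pcp2, also called L7, is a GoLoco protein that binds inhibitory G protein subunits, and its regulatory sequences are widely used to drive Purkinje cell transgenes. It had 21019.7, 16159.2 and 20270.3 normalized counts in controls and 46.5, 28.1 and 37.9 in RasV12 GFP+ libraries, with little spread in either group. The means differed 511-fold (-8.98 ± 1.14; adjusted p = 0.000556). Pcp2 shares 941 exon bases with Pet100 on the opposite strand, and the libraries do not mark strand. Pet100 had 378 ± 126 (SD, n = 3) normalized counts in controls and 294 ± 120 in RasV12 libraries and did not pass the test (adjusted p = 0.867). The part of reads from the shared bases in the Pcp2 values was not tested. Ppp1r17 encodes G-substrate, a target of cGMP-dependent protein kinase that inhibits protein phosphatases once phosphorylated. It had 503.6, 828.4 and 1365.3 normalized counts in controls and no reads in the 3 RasV12 GFP+ libraries. With 3 reads over the whole group taken as the floor, it was at least 1854-fold lower (adjusted p = 0.00233).

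Rora and Lhx1os are the transcriptional regulator and the noncoding RNA of the set. Rora had 4893.2, 2286.5 and 5776.4 normalized counts in controls and 867.1, 597.3 and 769.3 in RasV12 GFP+ libraries, so the lowest control was 2286.5 and the highest RasV12 library 867.1. The means differed 5.80-fold, the smallest of the 9 (-2.45 ± 0.66; adjusted p = 0.0407). Rora lost the call in 12 of 27 alternatives: with FPKM (0.0643), quantile normalization (0.214), no filter (0.0695), edgeR (0.0557) and the receptor level subtracted (0.796), and without control GFP+ 1 (0.115) or 3 (0.125), RasV12 GFP+ 1 (0.0981), 2 (0.140) or 3 (0.105), or control CD11b+ 1 (0.0536) or 3 (0.0530). Its log2 fold change was -2.85 to -2.06 over these alternatives. RasV12 GFP+ 1, 2 and 3 stood at 16.3, 16.2 and 26.8 times the receptor level of Rora. Lhx1os is a long intergenic RNA that starts beside Lhx1, a LIM-homeobox gene of developing Purkinje cells. It had 2614.4, 3559.2 and 2484.3 normalized counts in controls and 0, 14.9 and 0 in RasV12 libraries, 581-fold lower by the means (-10.15 ± 1.66; adjusted p = 0.00274). Lhx1 itself was far less abundant, with 130 ± 118 (SD, n = 3) normalized counts in controls and 55.4 ± 64.4 in RasV12 libraries, and its difference did not pass (-2.45 ± 1.64; adjusted p = 0.488).

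**Figure D2:**
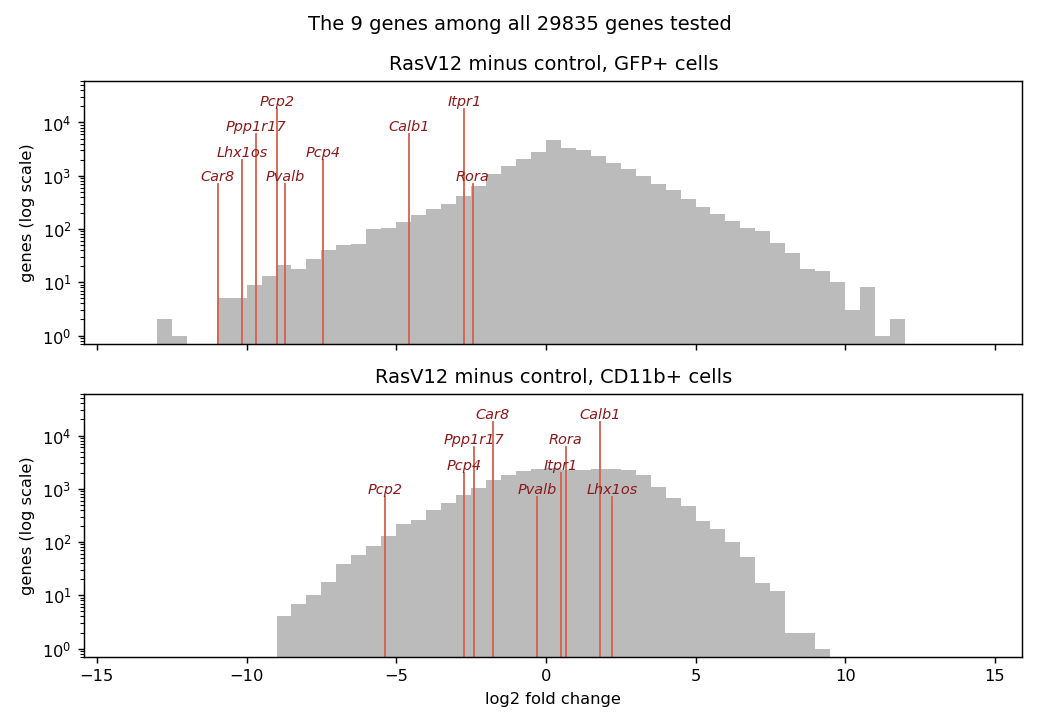
The 9 genes among all 29835 tested. Grey bars count genes (log scale) by log2 fold change of RasV12 against control, in GFP+ cells above and in CD11b+ cells below, and red lines mark the 9 genes. In GFP+ cells the 9 lie from -10.96 (Car8) to -2.45 (Rora). In CD11b+ cells they lie from -5.37 (Pcp2) to 2.22 (Lhx1os).

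Other genes of the same cell and pathways were read from lists, with the members above left out. Of 18 other Purkinje cell genes 17 were tested, and 4 fell and 0 rose between control and RasV12 GFP+ cells, with a median log2 fold change of -1.83. Gng13, a G protein gamma subunit, had 8322 ± 728 normalized counts (SD, n = 3) in controls and 15.5 ± 10.1 in RasV12 libraries (-9.18; adjusted p = 0.000503). Slc1a6, the glutamate transporter EAAT4 of Purkinje cells, fell from 399 ± 189 to 2.0 ± 1.7 (-7.08; adjusted p = 0.00273). Arhgef33 fell from 1778 ± 637 to 29.1 ± 28.1 (-6.68; adjusted p = 0.00427). Inpp5a, which removes a phosphate from IP3, fell from 4291 ± 1459 to 447.5 ± 51.8 (-3.20; adjusted p = 0.0178). The call for Inpp5a was lost by quantile normalization and without control GFP+ 1 or 3 or RasV12 GFP+ 1, 2 or 3, with adjusted p between 0.0579 and 0.135.

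Of 26 genes of calcium and IP3 signaling 25 were tested, and 5 fell and 0 rose, with a median of -0.48, while edgeR called 2 and DESeq2 7. Atp2b2, a calcium pump of the cell surface, fell from 1756 ± 361 to 46.6 ± 52.5 normalized counts (SD, n = 3; -6.15; adjusted p = 0.00342). Its call was lost when the receptor level was subtracted (adjusted p = 0.0537). Cacnb4, a calcium channel subunit, fell from 2413 ± 241 to 60.3 ± 48.8 (-5.93; adjusted p = 0.00356). Calm3, a calmodulin gene, fell from 6852 ± 1673 to 1630 ± 205 (-2.05; adjusted p = 0.025), and did not pass under quantile normalization (-1.59; adjusted p = 0.368). Slc8a2, a sodium-calcium exchanger named after its values were seen, was also called, at 143 ± 162 and 1.73 ± 1.53.

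The list of cGMP signaling and protein phosphatases, the setting of Ppp1r17, held 9 tested genes, and 1 of them fell. That was Ppp1cb, a catalytic subunit of protein phosphatase 1 (6747 ± 1502 to 2805 ± 538 normalized counts; SD, n = 3; -1.26; adjusted p = 0.0246). Its call was lost in 10 of 27 alternatives, among them edgeR (which called 0 of the list), quantile normalization and leaving out control GFP+ 1 or 2 or RasV12 GFP+ 1, 2 or 3, with adjusted p between 0.0521 and 0.309 in the 10. Of 8 genes of ROR relatives and the clock that use ROR elements, limma called 0, with 1 at an unadjusted p under 0.05, edgeR called 0 and DESeq2 called 1. Their median was 0.39.

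Genes of granule cells and of neurons in general fell with the 9 genes, while the summed level of GABAergic interneuron markers did not. Of 11 granule cell markers 7 fell and 0 rose in RasV12 GFP+ cells (median -5.16), and of 8 genes of neurons in general 5 fell and 0 rose (median -4.40). The 5 were Snap25, Rbfox3, Tubb3, Stmn2 and Syp, named after their values were seen, and Snap25, of the synaptic vesicle fusion machinery, had means of 31390 and 1148 normalized counts. Summed levels were 26990 to 37980 normalized counts in controls and 3023 to 3549 in RasV12 libraries for granule cell markers, and 41880 to 66400 and 4532 to 4888 for the neuron list. Of 14 tested markers of GABAergic interneurons of the cerebellum 2 rose and 0 fell. The median over the 14 was -1.87, with a range from -5.57 to 7.21. The 16 genes of that list summed to 7810 to 16150 in control and 8868 to 18350 in RasV12 GFP+ libraries. Those that rose were Nxph1 (means of 163 and 3025) and Kit (185 and 2598), both named after their values were seen. For this list edgeR called 0 and DESeq2 4. Summed glial markers were at 2866 to 17700 for oligodendrocytes and 34560 to 96180 for astrocytes and Bergmann glia in RasV12 GFP+ libraries. Of 5 erythroid markers, genes of red blood cells, 4 fell (median -9.18), and the list summed to 82.9 to 506.8 in RasV12 GFP+ libraries and 84.7 to 679.5 in control CD11b+ libraries. Of 4 tested choroid plexus markers 2 fell (median -6.87), and the list summed to 18.3 to 96.7 in RasV12 GFP+ libraries. Of 5 tested genes of hindbrain identity 2 rose by limma and 1 by edgeR (median 0.98), and the list summed to 180.0 to 479.6 in control and 718.5 to 975.3 in RasV12 GFP+ libraries. Of 4 tested genes of forebrain identity 1 rose by limma and 0 by edgeR (median 2.51), and 8 of the 9 genes in that list had no reads in control GFP+ cells. The part of these cell types, or of the mitochondrial share of each library, in the change of the 9 genes was not tested.

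Control CD11b+ phagocytes held low levels of the Purkinje cell genes, with no reads of Lhx1os in replicate 1. All 9 were lower there than in control GFP+ cells, against 6.91% of all genes called lower and 19.3% called higher in this comparison, with a median log2 fold change of -5.46 for the 9 and 1.80 for all genes. For each of the 9 the 3 CD11b+ libraries lay below the 3 GFP+ libraries, as for 12.7% of all genes. This comparison and the one above share the 3 control GFP+ libraries, so their values are given side by side and not as independent support.

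Pvalb had 151.3, 74.8 and 70.3 normalized counts in control CD11b+ libraries (-7.25 ± 0.87 against control GFP+, SE; limma adjusted p = 0.000131). Pcp2 had 147.4, 149.7 and 89.0 (-7.24 ± 1.14; adjusted p = 0.000835), and Pcp4 had 121.5, 115.3 and 77.3 (-6.41 ± 1.34; adjusted p = 0.00471). These genes lay within a narrow band in the 3 libraries, although control CD11b+ 2 had by far the highest receptor level of the 3. Calb1 and Itpr1 instead were highest in control CD11b+ 2: Calb1 had 154.4, 669.1 and 59.5 normalized counts (-4.06 ± 0.92; adjusted p = 0.00721) and Itpr1 had 451.5, 2195.8 and 365.5 (-3.01 ± 0.64; adjusted p = 0.00509). Rora had 375.5, 866.6 and 333.4 (-3.07 ± 0.66; adjusted p = 0.00541), also with its highest value in control CD11b+ 2. With the receptor level subtracted, Calb1 (-4.63; adjusted p = 0.162) and Rora (-3.83; adjusted p = 0.324) no longer passed. Their fitted changes were larger in that setting, so the calls were not lost through a smaller difference.

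Car8 had 191.3, 338.3 and 202.7 normalized counts (-5.46 ± 1.15; limma adjusted p = 0.00492), and Lhx1os had 0, 61.4 and 25.2 (-7.92 ± 1.66; adjusted p = 0.00482). Ppp1r17, the least abundant, had 37.6, 21.0 and 14.8 (-5.13 ± 1.55; adjusted p = 0.028). The call for Ppp1r17 was lost with no filter (adjusted p = 0.0507) and without control GFP+ 1 (0.0507), 2 (0.0706) or 3 (0.0771) or control CD11b+ 2 (0.0699) or 3 (0.0768). The median gene of the 9 stood at 1.79, 2.34 and 1.65% of its control GFP+ mean in the 3 control CD11b+ libraries. Control CD11b+ 1, 2 and 3 held 8, 8 and 9 of the 9 genes above their receptor level. Of the other Purkinje cell genes 8 were lower and 1, Foxp2, was higher in control CD11b+ than in control GFP+ cells, and of the granule cell markers 11 of 11 were lower.

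**Figure D3:**
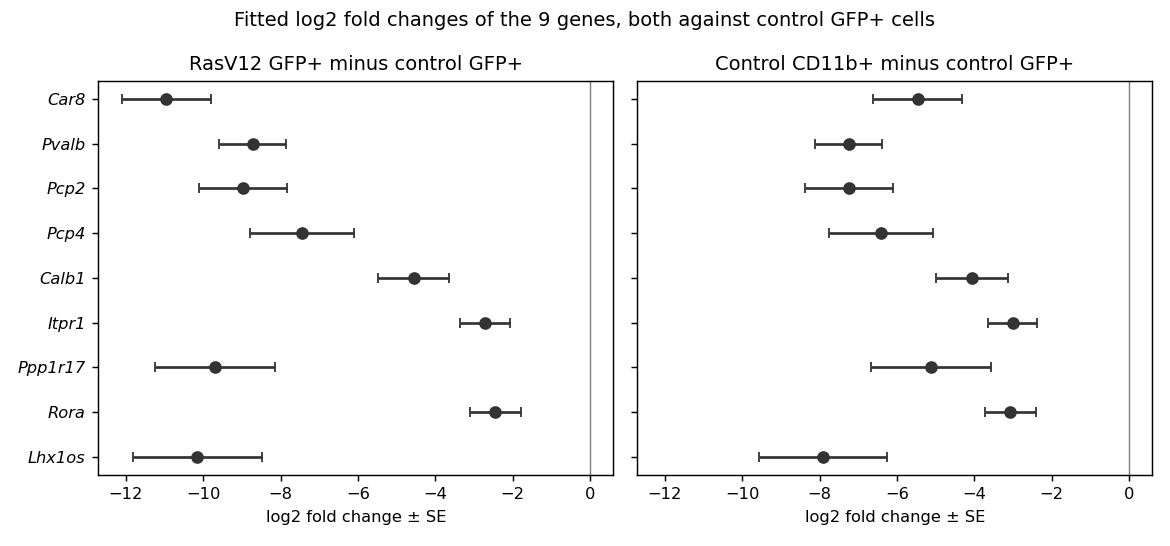
Fitted log2 fold changes of the 9 genes against control GFP+ cells, with bars of 1 SE on each side. The left panel shows RasV12 GFP+ cells and the right panel control CD11b+ cells. Both panels use the same 3 control libraries, and all points lie below 0, with Itpr1 and Rora nearest to it.

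Between RasV12 and control phagocytes only Pcp2 passed the test. In this comparison 2.39% of all genes were called lower and 2.97% higher, and the median over the 9 genes was -0.29 against 0.74 over all genes. Pcp2 had 0, 27.7 and 0 normalized counts in RasV12 CD11b+ libraries, below the 89.0 to 149.7 in control CD11b+ libraries (-5.37 ± 1.14, SE; limma adjusted p = 0.0197). In reads these were 5 in RasV12 CD11b+ cells, all in replicate 2, and 493 in control CD11b+ cells. The call was lost when the 6 CD11b+ libraries were fitted alone (adjusted p = 0.158) and without control CD11b+ 1 (0.0805) or 3 (0.0625). Without RasV12 CD11b+ 1 and 2 and control CD11b+ 2 the change was -6.85, and those of Pcp4 and Ppp1r17 were -6.61 and -4.63. That fit leaves 1 RasV12 CD11b+ library, which is assumed to vary like the other groups.

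The remaining 8 genes did not pass and spread widely among the tumor libraries. Car8 had 31.2, 415.4 and 24.0 normalized counts in RasV12 CD11b+ cells (-1.77; adjusted p = 0.331), and Pvalb had 17.8, 127.4 and 185.6 (-0.29; adjusted p = 0.854; means of 110.3 and 98.8 in RasV12 and control CD11b+ cells). Pcp4 had 26.7, 132.9 and 0 (-2.74; adjusted p = 0.206). For these genes the tumor libraries reached both above and below the control CD11b+ range. Ppp1r17 had 89.1, 0 and 0 (-2.41; adjusted p = 0.327; means of 29.7 and 24.5). For Pvalb and Ppp1r17 the means run opposite to the log2 change, which weighs low values and zeros more. Lhx1os had 53.5, 271.4 and 10.2 (2.22; adjusted p = 0.398). Calb1 had 459.0, 1146.4 and 527.9 (1.82; adjusted p = 0.218), and Itpr1 had 811.0, 1838.7 and 695.5 (0.50; adjusted p = 0.631). Rora had 2179.1, 365.5 and 542.9 (0.66; adjusted p = 0.532), with RasV12 CD11b+ 1 far above the others.

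The summed level of the 9 genes overlapped between phagocytes of tumors (1986 to 4325 normalized counts) and of controls (1238 to 4492), while the receptor level was higher in the tumor libraries. RasV12 CD11b+ 1, 2 and 3 had 2, 5 and 2 of the 9 genes above their receptor level, and 42.4, 39.6 and 45.9% of all genes tested lay above theirs. In control CD11b+ libraries that share was 68.7, 56.6 and 71.0% of all genes. Itpr1 stood at 0.469, 0.933 and 0.536 times its receptor level in these libraries, so its normalized counts there were no higher than those of receptor genes scaled to its length. Pcp2 stood at 0, 0.141 and 0 times in RasV12 CD11b+ and at 14.6, 1.82 and 8.57 times in control CD11b+ libraries. When that level was subtracted, Pcp2, Car8 and Itpr1 were called lower in RasV12 phagocytes, but 8.20% of all genes were then called lower and 1.88% higher, and the median of all genes was -0.65. Values below the level were set to 0 in that setting, so its fold changes are not measured ones. Among the other Purkinje cell genes 3 were called higher in RasV12 than in control phagocytes and edgeR called 0 of this list. Dner and Slc1a6 were among the 3 and were named after their values were seen.

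**Figure D4:**
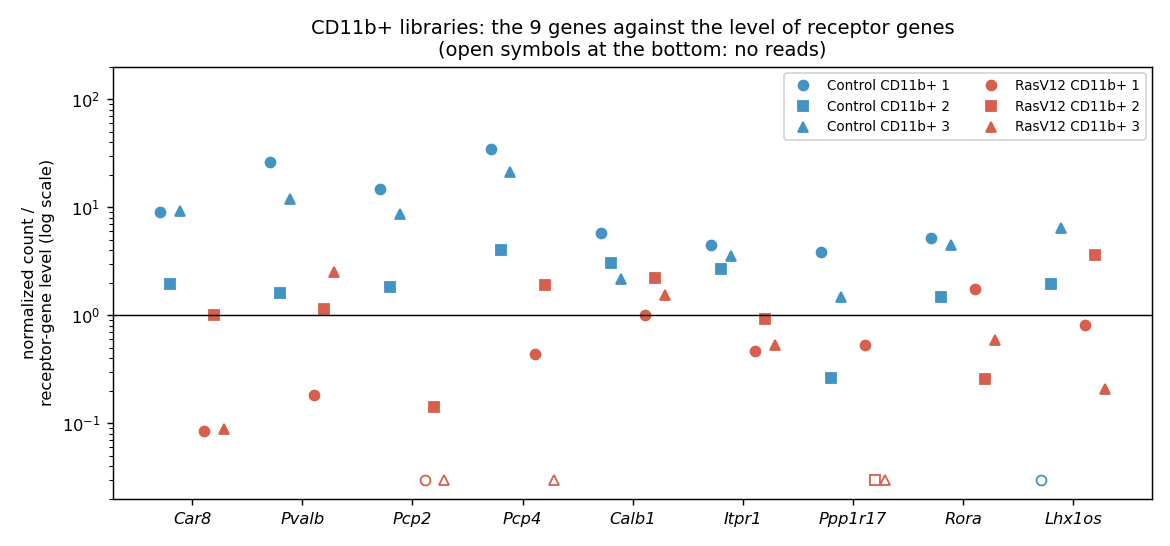
The 9 genes in the 6 CD11b+ libraries, as the ratio of the normalized count to the receptor level of the gene (log scale). The line at 1 marks equality, symbol shapes are replicates, and open symbols at the bottom stand for no reads. In control libraries 25 of 27 points lie above 1 and in RasV12 libraries 9 of 27.

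Within tumors, CD11b+ cells were compared with GFP+ cells. Here 29.8% of all genes were called higher and 10.2% lower, and 2 of the 9 genes were called higher and 1 lower, shares near that background. The median was 1.18 for the 9 and 1.79 for all genes. Car8 was higher in phagocytes (156.9 against 8.10 normalized counts; 3.74 ± 1.15, SE; limma adjusted p = 0.0211). The call rested on RasV12 GFP+ 1 (adjusted p = 0.0837 without it), RasV12 GFP+ 2 (0.0569) and RasV12 CD11b+ 2 (0.0802), and was also lost by quantile normalization (0.674), edgeR (0.0966), a fit of the 6 tumor libraries alone (0.110) and without the 3 libraries that stood apart (0.220). With the receptor level subtracted the sign turned (-1.07). Lhx1os was called higher (4.45 ± 1.66; adjusted p = 0.0471) though its groups overlapped, and it passed in 9 of 27 alternatives. Pcp2 was lower in tumor phagocytes than in RasV12 GFP+ cells (9.23 against 37.5; -3.62 ± 1.14; adjusted p = 0.0228). Its call was lost with a pseudocount of 10 (adjusted p = 0.0601), with the 6 tumor libraries alone (0.112) and without RasV12 GFP+ 1 (0.0641) or 3 (0.0604), or RasV12 CD11b+ 1 (0.0714) or 3 (0.0641). Without the 3 libraries that stood apart, which leaves 1 RasV12 CD11b+ library, the changes were -5.24 for Pcp2 and 2.16 for Lhx1os. Those of Pcp4 and Pvalb were -5.65 and 2.46.

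The difference between the RasV12 effects in phagocytes and in GFP+ cells was tested directly. Of the 9 genes 4 passed, all with a higher effect in phagocytes than in GFP+ cells, against 2.06% of all genes called higher and 2.34% called lower. The differences were 9.19 ± 1.63 for Car8 (SE; limma adjusted p = 0.00772), 8.43 ± 1.23 for Pvalb (0.00262), 6.39 ± 1.30 for Calb1 (0.0147) and 12.37 ± 2.35 for Lhx1os (0.0108), on the log2 scale. Pcp2 (3.61; adjusted p = 0.239), Pcp4 (4.70; 0.19), Itpr1 (3.22; 0.0606), Ppp1r17 (7.29; 0.0781) and Rora (3.11; 0.0775) did not pass. In phagocytes Calb1 and Lhx1os had positive fitted changes, given above, that did not pass. In control CD11b+ 1, 2 and 3 the median gene of the 9 already stood at 1.79, 2.34 and 1.65% of its control GFP+ mean. That low start left less room for a fall in phagocytes than in GFP+ cells. A positive difference therefore need not mean that the 2 cell types responded differently. The calls of Car8, Pvalb, Calb1 and Lhx1os were lost when the receptor level was subtracted (adjusted p = 0.0586, 0.0954, 0.423 and 0.102), those of Car8 (0.0972) and Pvalb (0.0712) also by quantile normalization, and that of Calb1 by edgeR (0.0554). The subtraction also brought Pcp2 (2.70; adjusted p = 0.0392), Ppp1r17 (7.23; 0.0231) and, with the opposite sign, Itpr1 (-6.16; 0.00197) past the threshold. Without the 3 libraries that stood apart, which leaves 1 RasV12 CD11b+ library, the difference was 7.98 for Car8 and 9.56 for Pvalb. In that fit it was 3.49 for Itpr1 and 3.06 for Rora.

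The genes whose profile over the 12 libraries was most like the mean profile of the 9 were Map4 (Pearson r = 0.970), Bcat1 (0.968), Snrpn (0.964), Fam107a (0.962) and Kif5c (0.960). These values describe 12 libraries that share depth and group, and no test was made. None of these 5 is in the Purkinje cell lists. Fam107a ran from 18872.5 to 27819.2 normalized counts in control GFP+ and from 45.6 to 236.2 in RasV12 GFP+ libraries. Among the 9 genes the correlation with their own mean was highest for Pvalb (0.933) and Car8 (0.921) and lowest for Rora (0.82). Each of the 9 is part of that mean, which raises its correlation, so these values do not compare with those of the 5 genes.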

How the data were processed

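RNA-seq of 12 libraries was used, from tumor and control mice sorted for GFP or for CD11b. Per the labels' protocols, Sepazol RNA was amplified with a SMARTer low-input kit and made into Nextera XT libraries, a route without strand, so genes overlapping on opposite strands cannot be separated. The submitters' processing notes name GRCm38.p6 and the tools HISAT2 2.1.0, Subread 1.6.2, DESeq2 1.20.0, bcl2fastq 2.17.1.14 and featureCounts. Which tool made which value is not given here.

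The authors deposited normalized counts, used here as a signal, and FPKM values, which are proportional to them within a gene. In the deposited normalized counts at least 99.9943% of nonzero values per library equaled a whole number of reads after division by a library's step (tolerance 0.05). IDs matched GENCODE M21 for 98.3% of 54547 genes.

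Limma-trend (limma 3.58.1 in R 4.3.3) was the main test. It took log2 of the normalized count plus 1, all 12 libraries and a mean for each group. The 29835 genes that reached a normalized count of 10 in 3 or more libraries were tested, with Benjamini-Hochberg adjustment over them at 0.05. Fold changes are on that scale, which understates changes of low genes. Results were recomputed with FPKM, with upper-quartile or quantile normalization, with pseudocounts of 0.5 and 10, with a filter at 50 or none, with robust variance, array weights or a replicate block, in fits of 6 libraries, with edgeR 4.0.16 and DESeq2 1.42.0 on recovered reads, with the receptor level subtracted and without each library. Leaving out together the 3 libraries of low depth or high receptor level was added after seeing the data. The receptor level was the summed normalized count of 1791 Olfr, Vmn1r, Vmn2r and Tas2r genes per kb, times the gene length implied by the 2 deposited tables.

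The 9 genes, the gene lists and the tests were chosen with earlier results of these data known. Genes named from lists were up to 4 per pathway list with the smallest adjusted p in the GFP+ comparison, and Lhx1. The genes most alike were the 5 tested genes with the highest correlation, a mean of at least 100 in the highest group and no clone name. The fit was first tested on simulated counts. Some genes that this rule named are not reported.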

Additional observations from a re-analysis of the deposited data

Results flagged for a closer look

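The effect of RasV12 differed between CD11b+ and GFP+ cells for 4 of the 9 Purkinje cell genes by limma's test of the difference itself (the effect in CD11b+ minus that in GFP+ cells, log2). Over all genes 2.06% were called higher and 2.34% lower by this test. The 9 genes were already low in control CD11b+ cells, which left less room for a fall there than in GFP+ cells. Car8 differed by 9.19 (adjusted p = 0.00772), Pvalb by 8.43 (adjusted p = 0.00262), Calb1 by 6.39 (adjusted p = 0.0147) and Lhx1os by 12.37 (adjusted p = 0.0108). In each case the RasV12 GFP+ libraries lay below the control GFP+ libraries, while the 2 groups of CD11b+ libraries overlapped for Car8, Pvalb, Calb1 and Lhx1os. The depth of RasV12 CD11b+ 1 and 2 and the receptor level of the RasV12 CD11b+ libraries move with this contrast. With the receptor level subtracted the differences were 4.84, 6.49, 3.95 and 9.61, and the 4 calls were lost.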

How the results depend on the processing

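In RasV12 against control GFP+ cells, Car8, Pvalb, Pcp2, Pcp4, Ppp1r17 and Lhx1os passed in 27 of 27 alternatives, and 7 to 9 of the 9 genes passed when 1 library was left out. In control CD11b+ against control GFP+ cells 8 to 9 passed when 1 library was left out. The count of 1 in RasV12 against control CD11b+ cells became 2 by quantile normalization, 0 with 6 libraries and 3 with the receptor level subtracted. It was 0 to 2 when 1 library was left out. The count of 3 in RasV12 CD11b+ against RasV12 GFP+ cells became 0 with 6 libraries and 0 to 4 when 1 library was left out. The count of 4 for the difference of effects became 8 with a pseudocount of 10, 7 with array weights, 7 with DESeq2 and 4 to 6 when 1 library was left out. Calls over all 29835 genes moved too. For the difference they went from 1312 to 2018 with a pseudocount of 10, 3102 with array weights and 3135 with DESeq2. For RasV12 against control CD11b+ cells they went from 1599 to 2421 by quantile normalization, 0 with 6 libraries and 3009 with the receptor level subtracted. For RasV12 CD11b+ against RasV12 GFP+ cells they went from 11953 to 11226 with 6 libraries. Fits of 6 libraries hold fewer samples, and the cause of these moves was not tested.

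Signs that turned between RasV12 and control CD11b+ cells (log2) were Pvalb to 0.19 with DESeq2, -0.93 to 0.72 when 1 library was left out and 0.84 without the 3 libraries; Itpr1 to -0.12 by upper-quartile scaling, -0.54 by edgeR and -8.97 with the receptor level subtracted; Rora to -0.10 without RasV12 CD11b+ 1 (up to 1.19 without others); and Ppp1r17 to 0.26 with DESeq2. The subtraction also turned Calb1 to -0.91, Rora to -4.84 and Lhx1os to -0.60. Between RasV12 CD11b+ and GFP+ cells Itpr1 turned to -0.53 by upper-quartile scaling, -0.03 by quantile normalization, -1.15 by edgeR, -9.67 by subtraction and -0.33 without the 3 libraries. Rora turned there to -0.70, -0.42, -0.90 and -6.15 under the first 4 of these and -0.44 without the 3 libraries. Pvalb turned to -1.41 by quantile normalization and -1.29 by subtraction, Car8 to -1.07 and Calb1 to -0.68 by subtraction, and Pcp4 to 0.27 without RasV12 CD11b+ 3. When 1 library was left out, Itpr1 ran from -0.22 to 0.53, Rora from -0.72 to 0.56 and Pcp4 from -3.26 to 0.27. For the difference of effects, subtraction turned Itpr1 to -6.16 and Rora to -2.32. The cause was not tested.

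Over all genes, quantile normalization moved the median log2 fold change from 0.56 to -0.12 in GFP+ cells and from 0.74 to 0.13 in CD11b+ cells, where upper-quartile scaling gave 0.21 and edgeR 0.36. Calls in GFP+ cells were 1235 higher and 792 lower, and 514 and 529 by quantile normalization; in CD11b+ cells they were 886 and 713, and 559 and 1319 by upper-quartile scaling, 739 and 1682 by quantile normalization and 30 and 404 by edgeR. Calls over all genes ranged over the alternatives from 1042 to 4907 in GFP+ cells (2027 in the main test) and from 0 to 5248 in CD11b+ cells (1599), from 3560 to 11466 (7826) and 4692 to 13294 (11953) between CD11b+ and GFP+ cells of controls and tumors, and from 578 to 4116 (1312) for the difference. With the replicate number as a block the counts of the 9 genes were 9, 1, 9, 3 and 4, as without it. Deviations of same-numbered libraries correlated by -0.029 to 0.090 in 18 pairs, and those of other libraries by -0.12 to 0.083 in 36 pairs. With 3 libraries per group, correlations this low cannot decide whether equal numbers mark the same animal. DESeq2 gave no adjusted p for Calb1. RasV12 CD11b+ 1 and 2 had the fewest reads, and 1 read was worth 4.46 and 5.54 normalized counts there.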
